A study of Homo sapiens with 3 samples.

Results

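Connexins are the membrane proteins of gap junctions, the channels through which neighbouring cells exchange ions and small molecules, and in the heart they carry the electrical impulse from one cardiomyocyte to the next. *GJA1* encodes the main connexin of working ventricular muscle. *GJA5* encodes a connexin of the atria and the fast conduction system, and *GJC1* one of the early heart and the nodes. *GJA4* is best known from the vessel wall, *GJA3* from the lens, and *GJB2* and *GJB6* from the inner ear and skin, where their mutations cause hearing loss. The contacts of these 7 gene promoters were described in cardiomyocytes made from human embryonic stem cells (hESC-CMs).

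They were measured by promoter capture Hi-C (PCHi-C), in which chromatin is fixed, cut with *Hin*dIII and ligated, so that a ligated pair of fragments records a contact, and pairs with a promoter are then pulled out of the mixture. The cells were 1 condition in 3 samples labelled as biological replicates, all differentiated from the single human embryonic stem cell line WA09 (H9) at passage 32, enriched with 4 mM lactate in medium without glucose, and fixed in 2% formaldehyde. The submitters checked them for at least 80-90% purity with *MYH7* and *TNNT2*, and the rest of the cells was not characterised in the labels. No untreated, undifferentiated or other control group was analysed here, so no groups were compared and no p value is given. The calls hold contacts and no expression, so the cell type could not be checked here against its markers.

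A member's promoter fragment was a *Hin*dIII fragment that held an annotated transcript start of that gene and was listed first in a call. Of 7 genes, 6 had one, and *GJA5* had a pair of them, which made 7 of the 19075 promoter fragments in the calls. Of the fragments, that of *GJA3* also held the start of *PPIAP28*, and those of *GJB2* and *GJA5* each held the start of a lncRNA, which the contacts cannot be told apart from. Each interaction is a pair of fragments with a CHiCAGO score. The score grades the evidence that the pair's reads exceed a background set by distance and technical noise. It does not give the size of the excess. Scores under 5 are not listed, so a pair that a replicate does not list may still have had a score there. The replicates held between 109731 and 112473 interactions each, with median scores from 6.63 to 6.65, and the depth in reads was not analysed here. The union of the replicates held 204 connexin interactions of 200587 in all.

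The promoter windows differed in base composition, which is why 4 of them are shown. RefSeq (GRCh38.p14) gives 6 windows for 5 of the 7 genes. Each sequence runs 5′ to 3′ along the gene's own strand, from 250 bases before the annotated start to 30 after it. Capitals mark the CG dinucleotides. The *GJA1* window is chr6:121435396-121435675 (plus strand), the *GJA5* windows are chr1:147773322-147773601 (upstream start, minus strand) and chr1:147760573-147760852 (downstream start, minus strand), and the *GJB2* window is chr13:20192909-20193188 (minus strand), all in GRCh38.p14.
GJA1: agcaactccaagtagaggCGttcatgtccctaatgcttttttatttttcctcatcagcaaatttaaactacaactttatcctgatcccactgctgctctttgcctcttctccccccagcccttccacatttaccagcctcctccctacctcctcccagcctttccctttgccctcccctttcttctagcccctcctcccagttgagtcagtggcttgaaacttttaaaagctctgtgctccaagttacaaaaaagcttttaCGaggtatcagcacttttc
GJA5 upstream start: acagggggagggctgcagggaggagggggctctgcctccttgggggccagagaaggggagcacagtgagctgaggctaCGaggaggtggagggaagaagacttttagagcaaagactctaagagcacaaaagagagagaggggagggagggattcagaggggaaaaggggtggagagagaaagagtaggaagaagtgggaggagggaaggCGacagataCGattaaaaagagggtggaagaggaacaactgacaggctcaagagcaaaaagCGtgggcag
GJA5 downstream start: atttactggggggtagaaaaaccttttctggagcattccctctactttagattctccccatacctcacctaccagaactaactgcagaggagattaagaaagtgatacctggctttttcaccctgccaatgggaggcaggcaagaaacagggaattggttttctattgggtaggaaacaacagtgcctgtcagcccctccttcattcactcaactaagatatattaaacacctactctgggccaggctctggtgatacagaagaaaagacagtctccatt
GJB2: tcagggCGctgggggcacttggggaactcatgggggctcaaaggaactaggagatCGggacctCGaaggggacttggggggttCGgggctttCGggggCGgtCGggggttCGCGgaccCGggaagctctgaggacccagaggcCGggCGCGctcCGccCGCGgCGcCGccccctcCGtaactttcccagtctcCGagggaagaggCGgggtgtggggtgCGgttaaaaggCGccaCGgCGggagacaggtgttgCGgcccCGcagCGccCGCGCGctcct
*GJB2* held 31 CG dinucleotides and *GJA3* 35, against a median of 13 over 35116 RefSeq windows. *GJA1* held 2, *GJB6* 2, and the *GJA5* windows 4 and 0, but the *GJB6* window lies in a neighbouring fragment (chr13:20804758-20805171, GRCh37) that no call holds. The GC content followed the same order, with 73.9% in *GJA3* and 71.4% in *GJB2*, 46.8% in *GJA1*, and 51.4% in *GJB6*, and 55.7% and 45% in the *GJA5* windows, against a median of 58.2%.

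Of 8 short motifs searched on both strands, the *GJA1* and *GJA5* windows held none. The TATA box was searched as TATAAA and found in 11.2% of all windows, and the GATA factor motif as AGATAA, found in 9.95%. The motif of the cardiac factor NKX2-5 was searched as CACTTNA (9.69%), that of T-box factors as GGTGTG (15.8%) and that of MEF2 as CTAAAAATA (0.490%). The GC box was searched as GGGCGG (44.1%), and TEAD factors as ACATTCC (3.28%) and as CATTCCA (3.99%), which can overlap each other. The *GJA3* window held the T-box letters, the GC box and the latter TEAD letters, the *GJB2* window held the T-box letters and the GC box, and the *GJB6* window held the T-box letters. The *GJA1* window also held a *Hin*dIII site whose first base was base 3 of the transcript, counted with the start as base 1, and the captured fragment ended there.

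The members ranged from no listed contact to more than 100. *GJA5* had 60, 68 and 55 interactions in replicates 1, 2 and 3, *GJA1* had 39, 36 and 44, and *GJB2* had 12, 10 and 10. *GJA3* had 3, 4 and 3, *GJC1* had 0, 2 and 1, and *GJB6* had 1, 1 and 0. *GJA5* and *GJA1* stood above the others in every replicate, and *GJB2* stood above *GJA3*, *GJC1* and *GJB6* in every replicate. The values of *GJC1* and *GJB6* overlapped. Over the 19075 promoter fragments the median was 6.00 partners in the union. As many partners as the *GJA1* fragment (49) or more were found for 2.73% of them, as many as the *GJA5* fragments (58 and 65) for 1.89% and 1.36%, where most partners lay in *HYDIN*, as many as *GJB2* (21) for 15.1%, as many as *GJA3* (7) for 49.9% and as many as *GJC1* (3) for 79.6%. Counted within 1 Mb alone, the *GJA5* fragments had 10 and 11 partners, numbers that 37% and 33.7% of promoter fragments reached with partners at any distance.

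**Figure D1:**
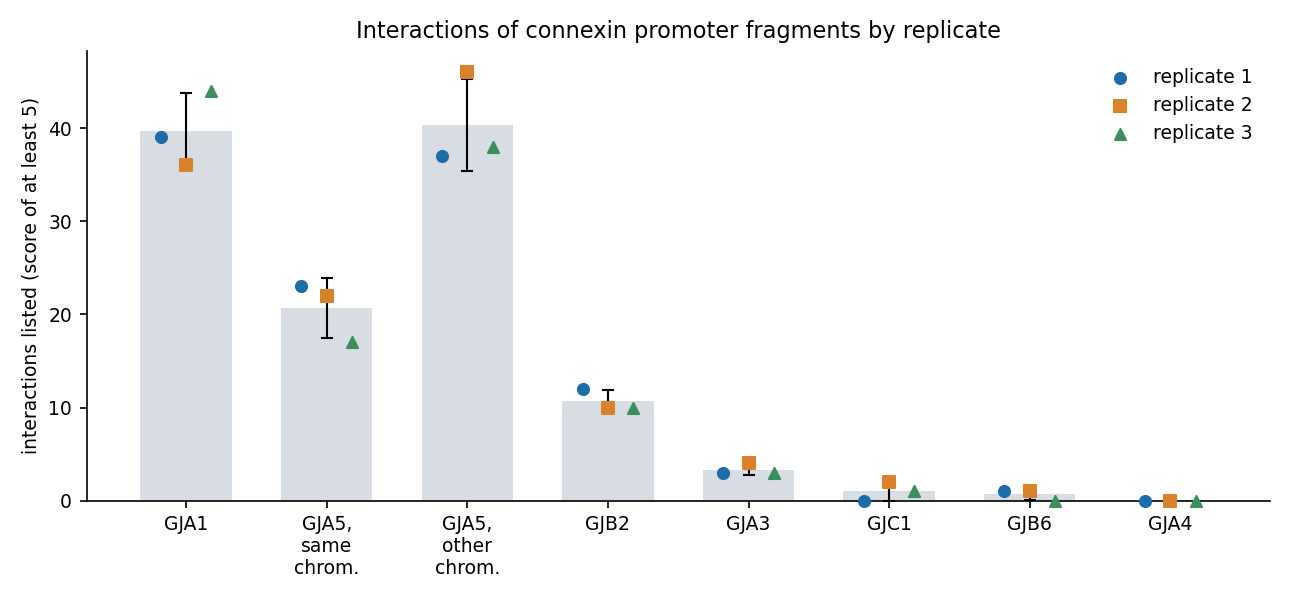
Number of listed interactions (score of at least 5) of each connexin gene in each of the 3 replicates. Bars are means, error bars are SDs over 3 replicates, symbols are single replicates, and *GJA5* is split into same-chromosome and other-chromosome interactions. *GJA1* had 36 to 44 interactions on its own chromosome and *GJA5* had 17 to 23, while *GJA4* had 0 in every replicate.

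*GJA4* had no entry. Its annotated start lies in the *Hin*dIII fragment chr1:35244702-35261317 of GRCh37, 16616 bp long, which occurred in no call, first or second in the pair, in any replicate or on the merged replicates. Whether that fragment was among those captured was not tested. Several other annotated starts of *GJA1*, *GJC1*, *GJB2* and *GJB6* also lie in fragments that were not listed first, so the values here describe the listed starts only.

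How often an interaction recurred depended on the gene. Among the 204 connexin interactions, 51 recurred in all 3 replicates (25.0%), close to the 24.0% over the whole series, while 43 were listed by 2 replicates and 110 by a single one. *GJA1* had 31 of 49 in all 3 replicates (63.3%), *GJB2* 4 of 21 (19.0%), *GJA3* 1 of 7 (14.3%) and *GJA5* 15 of 123 (12.2%). *GJC1* and *GJB6* had none. On the members' own chromosomes 46 of 119 interactions were in all 3 (38.7%), next to 24.6% of the same-chromosome interactions of the series, and 31 of those 46 belonged to *GJA1*. Where a called fragment within 5 kb counted as the same, 55.9% of the 204 recurred in all 3.

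Score and recurrence are not separate measures, because a replicate lists a fragment only at a score of 5 or more. Among the *GJA1* contacts the median of the mean scores was 9.31 for fragments in all 3 replicates, 6.53 for those in 2 and 5.54 for those in 1. Among all *GJA5* interactions the same medians were 7.65, 8.52 and 5.90. Of the 119 single *GJA1* scores, from 5.09 to 31.3, 42 reached 10.

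*GJA1* contacted a stretch without protein-coding genes. All 49 interacting fragments lay downstream of the gene on chromosome 6, between 397 and 964 kb from its promoter fragment chr6:121756383-121756794, and none lay upstream. The median distance was 691 kb, next to 716 kb over all same-chromosome interactions of the series. The promoter fragment is 412 bp long, where the median promoter fragment of the series has 6591 bp, and the 126 promoter fragments of 500 bp or less had a median of 9.0 partners. Of the 49 fragments 48 overlapped no annotated protein-coding or lncRNA gene (98.0%), and no protein-coding gene lies between *GJA1* and *HSF2*, the next one downstream, which encodes a heat shock transcription factor.

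The first 396 kb held no *GJA1* contact. That stretch contains 117 *Hin*dIII sites, and 7 of its fragments occurred in any interaction of the series, 3 of them as promoter fragments. With neighbouring fragments up to 20 kb apart joined into blocks, a rule set after the contacts had been seen, the 49 fragments fell into 6 blocks. The largest 3 held 44 of them: 9 fragments at chr6:122152736-122178860, 14 at chr6:122320395-122365696 and 21 at chr6:122444912-122544704.

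**Figure D2:**
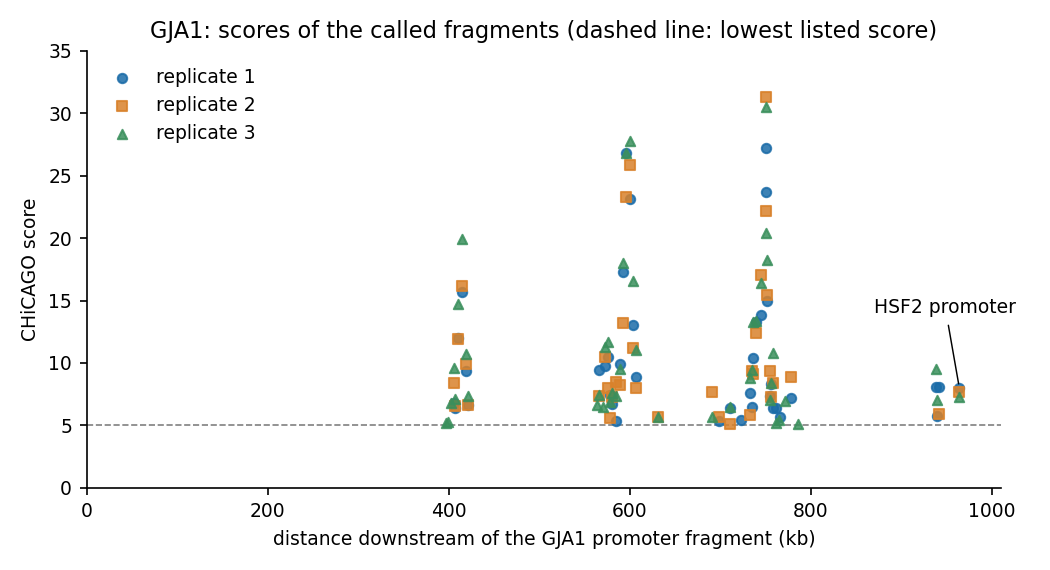
CHiCAGO score of every fragment called with the *GJA1* promoter fragment against its distance downstream in kb, with 1 symbol per replicate and a dashed line at the lowest listed score of 5. The scores rise to peaks near 415, 600 and 750 kb in each of the 3 replicates, and nothing is called in the first 396 kb.

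Each of the 3 large blocks had a peak with lower scores on both sides, and the peak was not always at the centre of the block. In the nearest block, chr6:122168499-122174688 scored 15.7, 16.1 and 19.9 in replicates 1, 2 and 3 (mean 17.3 ± 2.32, SD, n = 3) at 415 kb. In the middle block, the adjoining fragments chr6:122351117-122354011 and chr6:122354012-122358962 scored 26.8, 23.2 and 26.8 (25.6 ± 2.04) and 23.1, 25.9 and 27.8 (25.6 ± 2.34) at 596 and 600 kb. In the farthest of them, chr6:122505804-122506577 scored 27.2, 31.3 and 30.5 (29.7 ± 2.18) at 750 kb. The last of these had the highest mean of any connexin interaction, and it scored above both middle fragments in every replicate, although its range over replicates overlapped that of the fragment at 600 kb. The neighbour chr6:122506578-122507327 scored 23.7, 22.2 and 20.4 (22.1 ± 1.65), below it in every replicate. On the merged replicates this order was reversed, with 42.15 for the neighbour and 33.57 for chr6:122505804-122506577. The middle fragments had merged scores of 33.49 and 33.40, close to the latter.

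The replicates ranked the *GJA1* fragments alike. Over the 31 fragments called in all 3, Pearson's r between replicates was 0.95, 0.96 and 0.96. This is a description across neighbouring fragments that share 1 promoter fragment and are not independent. The SD of a fragment's score over replicates had a median of 1.58 and reached 2.75.

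The *GJA1* partner with the highest mean over replicates is short, 774 bp, with a GC content of 34%, and no other promoter fragment called it. Its first 300 bases are shown from the opening *Hin*dIII site (chr6:122505803-122506102, GRCh37, plus strand), beside those of the middle block's fragment (chr6:122351116-122351415). Capitals mark the *Hin*dIII site.
GJA1 partner at 750 kb: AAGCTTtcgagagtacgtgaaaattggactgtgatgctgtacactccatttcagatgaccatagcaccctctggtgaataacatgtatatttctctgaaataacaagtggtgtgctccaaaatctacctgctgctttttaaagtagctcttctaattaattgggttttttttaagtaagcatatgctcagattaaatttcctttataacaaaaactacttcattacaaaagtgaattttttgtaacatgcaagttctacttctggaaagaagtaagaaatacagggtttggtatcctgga
GJA1 partner at 596 kb: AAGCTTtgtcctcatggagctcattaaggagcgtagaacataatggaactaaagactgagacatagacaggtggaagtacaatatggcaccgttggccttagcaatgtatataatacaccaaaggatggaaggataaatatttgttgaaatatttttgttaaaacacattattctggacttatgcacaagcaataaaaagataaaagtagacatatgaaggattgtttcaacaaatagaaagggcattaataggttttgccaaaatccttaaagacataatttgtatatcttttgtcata
Of the 49 fragments, 30 were called by the *GJA1* fragment alone (61.2%). The median fragment of the series was also called by 1.00 promoter fragment. The share of all fragments with a single caller was not computed, so whether 61.2% is unusual was not tested.

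The farthest contact in all 3 replicates was the promoter of *HSF2*. Its fragment chr6:122719320-122722790, 964 kb away, scored 8.0, 7.68 and 7.28 (7.65 ± 0.361). The *HSF2* fragment had 19 partners of its own in the union and shared none with *GJA1*. The fragment chr6:122528292-122540275, which holds *RNU1-18P*, a pseudogene of a small nuclear RNA, was the other promoter fragment that *GJA1* met, with 7.21 and 8.84 in replicates 1 and 2. Of all connexin interactions 15 joined another promoter fragment (7.35%, next to 9.59% in the series), and none joined 2 members.

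The promoter fragments most like that of *GJA1* lie close to it. Likeness was the number of shared partners over the number of distinct partners of both (the Jaccard index). The fragment of *RNU4-35P*, a pseudogene of a small nuclear RNA at chr6:121773093-121775519, shared 15 partners with it, which were 15 of its own 15, with an index of 0.306. *RNU6-1286P* and *TBC1D32* followed far behind with indices of 0.0526 and 0.0357.

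The chromosome 13 members contacted the same side of the genome. *GJA3*, *GJB2* and *GJB6* lie together on the minus strand, with promoter fragments within 76.2 kb, and all 29 of their interactions ran to higher coordinates, upstream of the genes. The nearest was 287 kb away. The median distance was 643 kb for *GJA3* and 588 kb for *GJB2*, next to 716 kb over all same-chromosome interactions of the series. These promoters, like *GJA1*, had no contact nearer than 287 kb in any replicate. On the merged replicates *GJB6* had a further contact at 256 kb, with a score of 5.84.

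They met in 1 fragment. The fragment chr13:21498664-21500330 was the only partner of 3 member promoter fragments. It lies between *XPO4* and *LATS2* (a nuclear transport receptor and a kinase of the Hippo pathway), in no annotated protein-coding or lncRNA gene. With *GJB2* it scored 11.6, 12.6 and 11.7 in replicates 1, 2 and 3 (12 ± 0.547) at 730 kb. With *GJA3* it scored 9.61, 11.2 and 9.77 (10.2 ± 0.898) at 756 kb. With *GJB6* it scored 9.05 and 5.59 in replicates 1 and 2 and was not listed in replicate 3. Among contacts in all 3 replicates it had the highest mean for *GJB2* and was the only one of *GJA3*, and it was the only contact that *GJB6* had in a replicate. The scores for *GJB2* lay above those for *GJA3* in each replicate. In total 6 promoter fragments called it, the others being those of *CRYL1*, *IL17D* and a lncRNA (ENSG00000277020), each in 2 replicates.

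**Figure D3:**
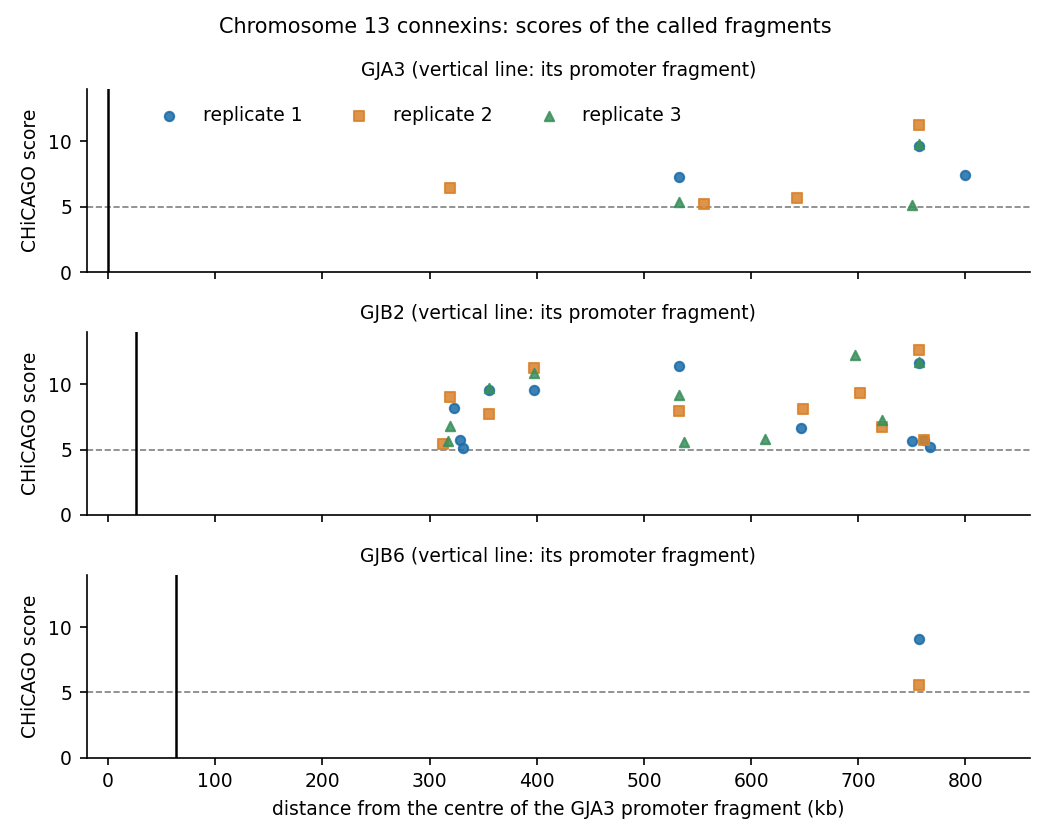
CHiCAGO scores of the fragments called with *GJA3* (top), *GJB2* (middle) and *GJB6* (bottom) against distance in kb from the centre of the *GJA3* promoter fragment, with 1 symbol per replicate, up to 1 Mb from each promoter. The vertical line is the gene's own promoter fragment and the dashed line the lowest listed score of 5. The fragment 756 kb from *GJA3* has points in all 3 panels, and no fragment within 287 kb of a promoter is called in a replicate.

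Its first 300 bases are given (chr13:21498663-21498962, GRCh37, plus strand), with the whole of a short fragment in a lncRNA exon that *GJB2* met in all 3 replicates (chr13:21140522-21140812). Capitals mark the *Hin*dIII sites.
Shared partner of GJA3, GJB2 and GJB6: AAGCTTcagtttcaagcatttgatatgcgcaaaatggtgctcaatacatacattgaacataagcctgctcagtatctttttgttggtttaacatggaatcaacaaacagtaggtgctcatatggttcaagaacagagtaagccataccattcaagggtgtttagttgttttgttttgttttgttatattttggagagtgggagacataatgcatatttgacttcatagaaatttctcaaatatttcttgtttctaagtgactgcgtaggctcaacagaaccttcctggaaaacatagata
GJB2 partner at 372 kb: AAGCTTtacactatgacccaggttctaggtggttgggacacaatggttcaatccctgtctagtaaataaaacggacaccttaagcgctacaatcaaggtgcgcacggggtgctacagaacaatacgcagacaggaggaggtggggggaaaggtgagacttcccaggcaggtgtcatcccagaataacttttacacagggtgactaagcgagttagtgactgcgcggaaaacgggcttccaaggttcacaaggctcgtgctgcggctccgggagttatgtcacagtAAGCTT

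*GJB2* contacted 3 other fragments that the calls list as promoter fragments in every replicate. The fragment in the lncRNA exon, chr13:21140523-21140807 with 285 bp, scored 9.52, 11.2 and 10.8 (10.5 ± 0.892) at 372 kb. The *IL17D* promoter, of a cytokine gene, scored 11.4, 7.98 and 9.14 (9.50 ± 1.73) at 507 kb. The *CRYL1* promoter, of a sugar-metabolising dehydrogenase gene, scored 9.57, 7.75 and 9.70 (9.01 ± 1.09) at 329 kb. Their ranges over replicates overlapped, so these 3 contacts cannot be put in order. *GJA3* met the *IL17D* promoter in 2 replicates, with 7.24 and 5.33. Of the 21 *GJB2* interactions 14 were in 1 replicate, and 1 of those, at chr13:21437447-21442884 in *XPO4*, scored 12.3 in replicate 3 and was unlisted in the others.

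*GJA3* and *GJB2* shared 4 partners, 57.1% of the 7 of *GJA3* and 19.0% of the 21 of *GJB2*. *GJB2* was the fragment most like *GJA3* (index 0.167), followed by *CRYL1* (0.136) and the lncRNA (0.0625). The fragments most like *GJB2* were those of *CRYL1* (0.219), *XPO4* (0.188) and *EEF1AKMT1* (0.185).

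*GJC1* had no contact that recurred. Its 17089 bp promoter fragment chr17:42903242-42920330 had 3 interactions, each in 1 replicate. A fragment in *ADAM11* scored 6.33 in replicate 2 at 59.5 kb, the next in the same gene scored 5.24 in replicate 3 at 54.2 kb, and a fragment in *HIGD1B* scored 5.92 in replicate 2 at 11.3 kb. All 3 scores lay close to the lowest listed score. The nearest in likeness was the promoter fragment of *CCDC103* and *EFTUD2*, with an index of 0.0714.

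*GJA5* had a repeatable set of contacts close by and a larger, scattered one on another chromosome. It has an upstream promoter fragment, chr1:147243015-147253375, and a downstream one, chr1:147227379-147237217. Of their 123 interactions 38 stayed on chromosome 1, 21 of these within 1 Mb, and 85 reached another chromosome. Within 1 Mb 10 of 21 were in all 3 replicates (47.6%), with 17, 15 and 11 calls in replicates 1, 2 and 3. Of the 17 same-chromosome interactions over more than 1 Mb, none was in all 3 and 15 were in 1.

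Of the 10 contacts in all 3 replicates, 8 lay together at chr1:147342691-147368932, on the upstream side of *GJA5*. No protein-coding or lncRNA gene is annotated in these 26.2 kb. The downstream fragment called 6 fragments there, 5 in all 3 replicates. The highest, chr1:147364472-147365064, scored 9.19, 9.71 and 9.21 (9.37 ± 0.295) at 132 kb. It was followed by chr1:147356759-147357248 with 7.00, 9.25 and 8.06 (8.10 ± 1.13) and chr1:147342691-147343602 with 8.49, 7.20 and 6.39 (7.36 ± 1.06), whose ranges overlapped.

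The upstream fragment called 5 of the same fragments, 3 of them in all 3 replicates. Its leading one was chr1:147342691-147343602, with 7.54, 8.18 and 8.06 (7.93 ± 0.340) at 95 kb. The fragment that led for the downstream start was listed here in replicate 2 alone, with 5.29. The upstream fragment also met a close neighbour on each side in every replicate. On the upstream side chr1:147255353-147255675 scored 6.65, 6.06 and 6.27. On the downstream side chr1:147237218-147238767, in the *GJA5* intron, scored 5.53, 6.14 and 6.29. None of the 43 *GJA5* scores within 1 Mb reached 10, where 42 of the 119 *GJA1* scores did.

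The leading partner of the upstream *GJA5* fragment, which the downstream fragment also met in all 3 replicates, is shown by its first 300 bases (chr1:147342690-147342989, GRCh37, plus strand), with the *Hin*dIII site in capitals.
GJA5 partner of the upstream start: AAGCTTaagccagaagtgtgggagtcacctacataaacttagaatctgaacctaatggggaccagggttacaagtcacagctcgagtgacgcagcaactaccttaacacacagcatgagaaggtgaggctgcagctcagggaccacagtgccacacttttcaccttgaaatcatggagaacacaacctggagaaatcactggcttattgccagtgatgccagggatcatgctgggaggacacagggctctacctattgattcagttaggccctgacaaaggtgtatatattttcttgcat

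**Figure D4:**
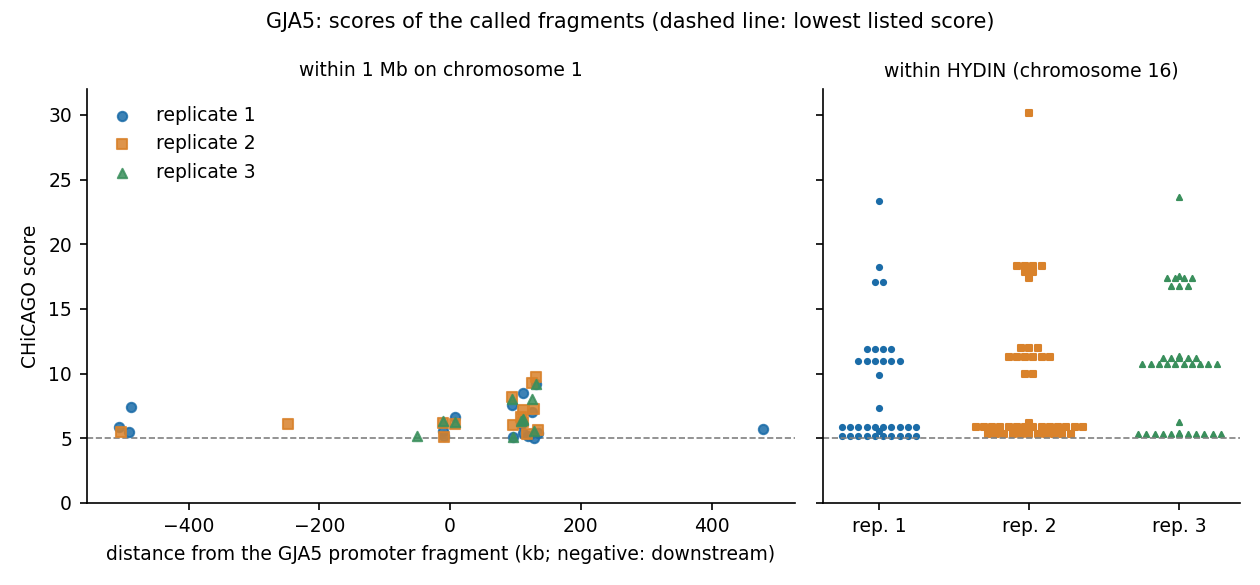
CHiCAGO scores of *GJA5* interactions, with 1 symbol per replicate and a dashed line at the lowest listed score of 5. Left, fragments within 1 Mb on chromosome 1 against distance in kb, with the upstream side positive, where 8 of the 10 contacts in all 3 replicates gather between 95 and 132 kb. Right, the 37, 45 and 38 calls within *HYDIN* by replicate, spread sideways where scores are equal, which shows 10 distinct values in each replicate.

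The other-chromosome calls are given apart, because nearly all lie in 1 gene. Of the 85, 84 had a partner in *HYDIN* (chr16:70835987-71264625), which encodes a protein of motile cilia, and 1 lay elsewhere on chromosome 16, between *ADCY9* and *SRL*, with a score of 5.90 in replicate 2. They made 41.7% of the connexin interactions, where 3.87% of all interactions in the series joined different chromosomes. On the merged replicates 4.96% of 141 connexin interactions did so, and without partners in *HYDIN* 0.833% of 120 did. The remaining members had none.

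The *HYDIN* calls covered 61 fragments, 23 of which were called by both *GJA5* fragments. Of the 84, 5 were in all 3 replicates and 53 in 1, next to 10 and 24 of the 38 on chromosome 1. Of these 5, the highest mean was for chr16:70907620-70909505 with the downstream fragment, which scored 11, 30.2 and 10.8 (17.3 ± 11.1). Next came chr16:70899701-70905382, which holds an annotated transcript start inside *HYDIN*, with the upstream fragment, at 5.57, 17.9 and 17.5 (13.7 ± 7.00), and chr16:70968877-70970333 with the downstream fragment, at 5.14, 11.2 and 16.8 (11.1 ± 5.81). The SDs over replicates were thus a large part of the means, and the ranges of all 3 overlapped. These 3 fragments were called by 11, 24 and 18 promoter fragments, and 0 of the 84 interactions had a partner with a single caller. The *PRKAB2* promoter fragment on chromosome 1 scored 34.35, 56.46 and 48.44 with chr16:70899701-70905382 and 33.33, 19.66 and 69.12 with chr16:70968877-70970333. With chr16:70907620-70909505 it scored 13.05, 19.66 and 26.12, below *GJA5* in replicate 2. The *HYDIN* calls were thus not particular to *GJA5*.

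The *HYDIN* scores took few values. Replicates 1, 2 and 3 listed 37, 45 and 38 scores for *GJA5* in *HYDIN*, and each set held 10 distinct values. On the merged replicates 7 of the 84 were called. The merged score of a same-chromosome connexin interaction called in all 3 replicates was above its replicate mean in 46 of 46 cases, and in 0 of the 4 such *HYDIN* interactions with a merged score. The counts of reads behind these scores were not analysed here.

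**Figure D5:**
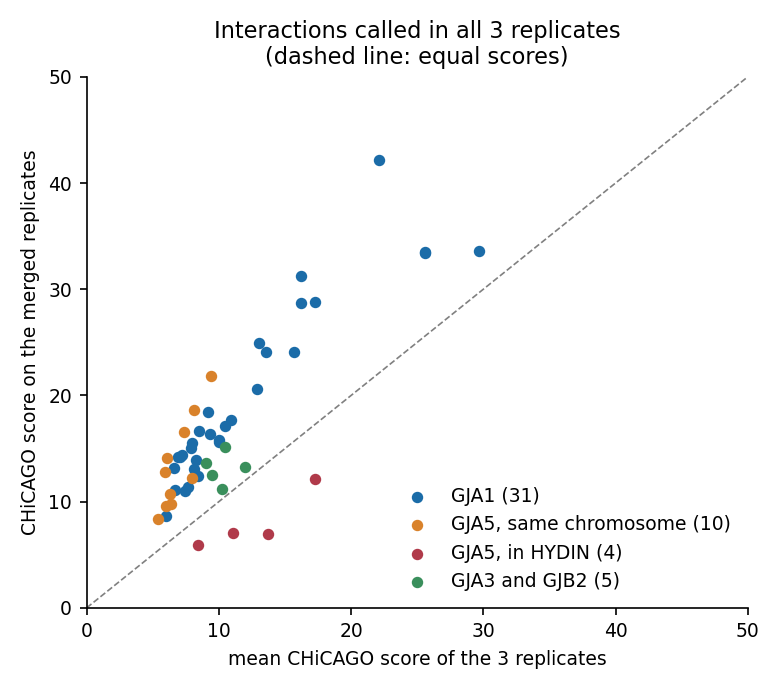
Score on the merged replicates against the mean score of the 3 replicates, for connexin interactions called in all 3 and on the merged replicates, with the number of each kind in the legend and a dashed line of equal scores. All 46 same-chromosome points lie above the line, and the 4 in *HYDIN* lie under it.

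*HYDIN* called the *GJA5* surroundings in return. The fragment with a transcript start inside *HYDIN*, chr16:70899701-70905382, had 365 partners, 357 of them on chromosome 1 and 256 of these within 1 Mb of the *GJA5* starts, and 132 were in all 3 replicates. Of the 38 *GJA5* interactions on chromosome 1, 25 had a partner that a promoter fragment within *HYDIN* also called, and so did 10 of the 10 in all 3 replicates. The same share over all called fragments of this region was not computed. These counts therefore do not set the recurrent *GJA5* contacts apart from their surroundings. Neighbouring promoters shared these partners. The fragments most like the downstream *GJA5* fragment included those of *ACP6* (0.389) and *PRKAB2* (0.336), and the same pair was among those most like the upstream one (0.404 and 0.421). The *GJA5* fragments shared 30 partners with each other, 51.7% of the downstream set and 46.2% of the upstream set, 7 of them on chromosome 1.

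The annotations used here name a copy of *HYDIN* on chromosome 1. A RefSeq table of GRCh38.p14 places *HYDIN2*, a copy of *HYDIN*, on chromosome 1 with 7 protein-coding genes between it and *GJA5*. In GRCh37, the build of the calls, the annotation was lifted over and holds an entry of that name at chr1:146310555-146349531. That entry is 878 kb from the downstream *GJA5* fragment. When the *HYDIN* gene sequence of GRCh37 was aligned to GRCh37 chromosome 1, 9 stretches of at least 500 bases at 95% identity or more were found, 15413 bases in all, and 0 lay within 1 Mb of the *GJA5* fragments. Thus no such stretch lay at the *HYDIN2* entry of GRCh37. The part of *HYDIN2* in the *HYDIN* calls was not tested.

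All 176 connexin promoter and partner fragments were bounded by *Hin*dIII sites at both ends in GRCh37. AGGGGGCGC or AGGTGGCAG, stretches of the binding motif of the architectural factor CTCF, occurred on either strand in 10 of 169 distinct partner fragments (5.92%), and in 8.89% of all 127139 fragments of the union. Among partners called in all 3 replicates they occurred in 2 of 47, both of *GJA1*: chr6:122334415-122339647 and the *HSF2* promoter fragment. The partners had a median length of 2063 bp against 2307 bp over all fragments.

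Further connexin genes with an interaction in all 3 replicates included *GJA10* (28 of 81), *GJD4* (12 of 31) and *GJD3* (6 of 19). *GJB1* and *GJE1* had no promoter fragment in the calls.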

How the data were processed

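The 4 sets of PCHi-C calls analysed were those of each of 3 hESC-CM replicates and that of all replicates merged. To make them, the authors aligned and filtered read pairs with HiCUP (GRCh37) and scored fragment pairs with the CHiCAGO defaults. Each deposited score is 5 or more and belongs to 1 pair of *Hin*dIII fragments. Versions are not given in the sources used here. A pair listed in either order was counted once, distance was measured from midpoint to midpoint of the fragments, a mean score is over the replicates that listed the pair, and SDs are between replicates. The labels do not say whether the replicates came from separate differentiations.

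Transcript starts came from GENCODE v44 lifted to GRCh37. The members and gene lists were chosen with earlier results of these data known. Genes named were the members, and for each the 3 highest-scoring fragments in all 3 replicates, the farthest one, every promoter contacted in all 3, the 3 most alike promoters with at least 5 partners, *HYDIN*, and other connexins. Some genes and 1 sequence that fall under this rule are not reported here. The blocks, the contacts in 1 replicate and their genes were chosen after their values were seen.

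Counts were tested on simulated data. Software was Python 3.11.15 with numpy 2.4.6, pysam 0.24.0 and matplotlib 3.10.9, minimap2 2.31-r1302 and samtools 1.23.1. Alternatives were a minimum score of 7 or of 10, omission of each replicate in turn, merged calls, starts of basic transcripts only, promoter fragments listed first only, same-chromosome interactions, at most 1 Mb, matching within 5 kb, and leaving out promoter pairs or *GJA5*. Leaving out partners in *HYDIN* was added after seeing the data.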

Additional observations from a re-analysis of the deposited data

How the results depend on the processing

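The 204 connexin interactions fell to 108 at a score of at least 7, 68 at 10, 119 on the same chromosome, 101 within 1 Mb and 120 without partners in *HYDIN*. The share in all 3 replicates (25.0%) was 27.8% and 19.1% at scores of 7 and 10, 38.7% on the same chromosome, 45.5% within 1 Mb, 55.9% with matching within 5 kb and 38.3% without *HYDIN*. Without 1 replicate, the share called in both others was 35.7% to 42.2%. The share between chromosomes (41.7%) was 67.6% at a score of 10, 4.96% on merged calls, 0% without *GJA5* and 0.833% without *HYDIN*. The median distance (604 kb) was 615 kb at a score of 7, 422 kb on merged calls, 598 kb with promoter fragments listed first, 576 kb within 1 Mb, and 598 to 604 kb without 1 replicate. The 34 partners shared by member promoter fragments became 15 at a score of 7, 11 at 10, 15 on merged calls, 11 on the same chromosome, 10 within 1 Mb and 11 without *HYDIN*. Of 117 alternative values of single genes (counts of interactions and highest mean scores), 93 stayed within 1.5 times (counts) or 1 SD (scores) of the main value and 24 did not. Some of the 93 could not move. Starts of basic transcripts left all 7 promoter fragments in place, and keeping the same chromosome could change *GJA5* alone. The highest mean score of *GJA5* went from 17.3 to 9.37 on the same chromosome, which counted as within 1 SD because that SD was 11.1. *GJA3* had 4 interactions without replicate 2, and *GJC1* had 1. *GJC1* had 0 at a score of 7.

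No paired analysis was possible because there was 1 condition. Fragments scoring under 5 are not listed, read depth was not analysed, and long promoter fragments hold several starts, so a contact cannot be assigned to 1 of them. Neighbouring fragments can belong to 1 contact and are not independent. With 3 replicates of 1 cell line, an SD rests on 3 values.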

Other observations

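The calls on the merged replicates held 59 *GJA5* interactions, where the union of the replicates held 123, and the upstream *GJA5* fragment had 15 where the union held 65. The downstream *GJA5* fragment had 29 merged calls within 200 kb, from chr1:147197508 to chr1:147382975, 22 of them not listed in any replicate, with merged scores from 5.56 to 10.85. *GJA1* had 61 merged calls, 13 of them not listed in any replicate, between 424 and 953 kb, with merged scores from 5.09 to 8.71. All 31 *GJA1* interactions in 3 replicates were also called on the merged replicates.

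Among *GJA5* contacts over more than 1 Mb, named after their values were seen, 9 of 17 lay at *PDE4DIP* or *SEC22B*, in fragments called by 14 to 57 promoter fragments each. The fragment chr1:145115011-145116060 in *SEC22B*, a gene of vesicle transport, scored 9.22 and 7.80 in replicates 1 and 2 with the downstream fragment. A fragment in an intron of *RYR2*, the calcium release channel of cardiomyocytes, was listed with the same promoter fragment in replicate 3 alone, with a score of 6.68 over 89982 kb.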
